A study of Mus musculus with 4 samples.

Results

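The genes described here are the posterior members of the HoxA and HoxD clusters: *Hoxa9*, *Hoxa10*, *Hoxa11* and *Hoxa13* on chromosome 6, and *Hoxd9*, *Hoxd10*, *Hoxd11*, *Hoxd12* and *Hoxd13* on chromosome 2. They were chosen by name, as 9 of the 32287 features of the count tables, and all 9 had counts in every library. The tables come from 10x Genomics 3′ single-cell RNA libraries of E16.5 mouse penises, 2 libraries per genotype. DTA- embryos carried the floxed DTA allele (DTA f/+), a diphtheria toxin gene that Cre can switch on, without the *Nr5a1cre* transgene. DTA+ embryos carried DTA f/+ together with *Nr5a1cre*, so that cells which had ever expressed *Nr5a1* were to make the toxin and be ablated. The study reports that most, but not all, of these cells were lost from the penis. The study's methods describe *Nr5a1cre* as active in the adrenal glands and testes as well, so the ablation was not limited to the penis. The methods also place a tdTomato reporter allele in the ablated embryos. Its transcript had 0 UMIs in both DTA- libraries and 3579 and 3140 UMIs in the DTA+ libraries, so the reporter and the ablation cannot be told apart. Whether a library held 1 penis or several is not stated in the sources used here. The study's methods speak of biological replicates for the single-cell data. p-values measure only the spread between the 2 libraries of a genotype, in which biological and technical parts cannot be told apart. With 2 libraries against 2 the smallest two-sided p of an exact permutation test is 0.333.

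Hox genes encode homeodomain transcription factors and lie in clusters in which the order of the genes follows the order of their activity along the body. The posterior genes at one end of the HoxA and HoxD clusters act in the limb bud, the hindgut and the urogenital tract, including the genital tubercle from which the penis forms. Mice without *Hoxa13* develop hypospadias, and mice without both *Hoxa13* and *Hoxd13* form no genital tubercle. The questions put to the counts were how each gene is distributed over mesenchymal, epithelial and vascular cells, and whether its level differed between DTA- and DTA+ penises.

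On GRCm38 (mm10), the HoxA members lie on the minus strand: *Hoxa9* at chr6:52223100-52231089, *Hoxa10* at chr6:52231197-52240854, *Hoxa11* at chr6:52242106-52245810 and *Hoxa13* at chr6:52257694-52260880. The HoxD members lie on the plus strand in the opposite order: *Hoxd13* at chr2:74668310-74671599, *Hoxd12* at chr2:74675013-74677705, *Hoxd11* at chr2:74679557-74687016, *Hoxd10* at chr2:74691924-74695105 and *Hoxd9* at chr2:74697727-74700208. Exons of *Hoxa11* share 800 bases, 35.0% of their length, with the antisense RNA *Hoxa11os*, which is counted as a feature of its own. Cell Ranger by default counts sense reads only for this kind of library, but the setting is not given in the sources used here, so reads of the pair may not be fully separated.

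The homeobox, the stretch of 180 bases that encodes the DNA-binding homeodomain, lies in a single coding exon of *Hoxa13* and of *Hoxd13*. Genes of the HoxA and HoxD clusters with the same number are paralogs that arose from a common ancestral gene. The group 13 pair is printed, because these genes are the most posterior of their clusters and had very similar distributions over the cells. Sequences are 5′ to 3′ on the coding strand, from the GENCODE annotation of GRCm38, and capitals mark the bases that differ between a gene and its paralog. The homeobox of *Hoxa13* spans chr6:52258928-52259107 (minus strand) and that of *Hoxd13* chr2:74669930-74670109 (plus strand).
Hoxa13: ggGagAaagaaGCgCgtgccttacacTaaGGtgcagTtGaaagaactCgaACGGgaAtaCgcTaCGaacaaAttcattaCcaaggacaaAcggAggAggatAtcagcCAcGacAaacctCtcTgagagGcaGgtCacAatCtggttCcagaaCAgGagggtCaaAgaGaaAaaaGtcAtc
Hoxd13: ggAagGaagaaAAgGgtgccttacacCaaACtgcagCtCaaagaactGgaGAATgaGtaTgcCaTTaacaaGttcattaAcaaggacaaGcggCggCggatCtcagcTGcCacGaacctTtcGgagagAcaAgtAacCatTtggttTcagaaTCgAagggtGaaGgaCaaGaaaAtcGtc
The pair shared 133 of 180 bases (73.9%). The 3′ assay counts transcripts by reads near their 3′ ends, so these bases show what the genes encode and not where reads were counted.

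Of 47040 deposited cells, 31132 passed the limits on UMIs (unique molecular identifiers, which mark captured mRNA molecules), mitochondrial and hemoglobin counts. The 4 libraries kept 6573 to 8810 cells with 29722067 to 33839196 UMIs, and the median kept cell had 3551 to 4700 UMIs. Libraries shared 31 to 48 cell barcodes in each pair, 12 to 21 of them among kept cells. Cells were grouped into 27 clusters without using any Hox gene, and clusters were named from marker genes: 19 mesenchymal clusters (28283 cells), and 1 cluster each for endothelium (497 cells), epithelium (445), pericytes (209), glia (270) and macrophages (223). Of the defining markers, 0 of 9 mesenchymal, 0 of 12 epithelial and 0 of 9 endothelial ones were at 0 in their class. This does not separate the classes, because every marker of these lists also had counts in mesenchyme. The clusters were named from the same markers. Clusters led by hemoglobin, mast cell and smooth muscle genes were also present. The mast cell cluster lies outside the question, and the others are left out of the comparisons of levels. The hemoglobin cluster was left out because its cells held mesenchymal marker RNA (5160 to 7756 summed CPM). The smooth muscle cluster was left out because DTA+ library 2 had 13 such cells. The hemoglobin and mast cell clusters do enter the correlations of profiles over all classes below. Levels are given as CPM, the UMIs of a gene per 1000000 UMIs of that class in that library, and are compared for the same gene across cells. A ratio between genes is given once, to be set beside the same ratio in other cells. Class levels are a description, since the genes were chosen with this pattern known.

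The posterior genes of both clusters were highest in mesenchyme at their most posterior end, and the group 9 genes were highest elsewhere. Every mesenchymal library lay above every epithelial library for 7 of 9 genes (30.2% of the 13859 genes compared did), and below for *Hoxa9* and *Hoxd9* (background 10%). Against endothelium, 6 genes were higher in every mesenchymal library (background 28.6%), *Hoxd9* was lower (14.7%), and *Hoxa9* and *Hoxd10* overlapped. All 9 genes passed the filter on low counts in these comparisons, but 3 of 9 passed it between endothelium and epithelium. Genes with few counts outside mesenchyme passed through mesenchyme, where they are high. The shares of all genes, here and for pericytes and glia below, are therefore no fair comparison for them. *Hoxa10*, *Hoxa11*, *Hoxa13*, *Hoxd11*, *Hoxd12* and *Hoxd13* had their highest class mean in mesenchyme, *Hoxa9* in epithelium, and *Hoxd9* and *Hoxd10* in endothelium.

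The group 13 genes, which control outgrowth of the genital tubercle and digits, were highest in mesenchyme. *Hoxd13* was at 91.9 and 87.3 CPM in the DTA- and 80.1 and 109.6 CPM in the DTA+ mesenchyme. In epithelium it was at 7.04, 0, 6.97 and 21.3 CPM (in the same order), and in endothelium at 0, 2.45, 8.96 and 2.54 CPM. Its lowest mesenchymal library thus stood well above its highest epithelial or endothelial library, and the ratio of the means was 10.4 against epithelium and 26.4 against endothelium. *Hoxa13* was at 71.9, 54.9, 67.3 and 83.4 CPM in mesenchyme, and its epithelial values were 7.04, 0, 1.74 and 18.3 CPM. Endothelial cells had 4.24, 2.45, 0 and 10.2 CPM of *Hoxa13*. The ratios of its means were 10.3 and 16.5, and the classes did not overlap.

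Epithelial counts of these genes were few: 10 UMIs of *Hoxa13* and 14 of *Hoxd13* in all 4 libraries, where 1 UMI in the smallest epithelial library is worth 3.05 CPM. The same epithelial cells held 886 to 2717 CPM of the 9 mesenchymal markers summed, against 10494 to 16036 CPM in mesenchyme. The part of this RNA in the epithelial Hox counts was not tested. Macrophages, which should not express these genes, had a mean of 3.37 CPM of *Hoxa13* and 4.32 CPM of *Hoxd13*. The cluster led by mast cell genes had means of 11.5 and 10.5 CPM (11 and 10 UMIs), but 9 of its *Hoxa13* UMIs came from 1 library. That cluster was enriched for 8 macrophage markers as well as 5 mast cell markers, so it and the macrophages are not clearly separate references. The epithelial means of 6.76 and 8.83 CPM lay between those of macrophages and of this cluster. These classes therefore do not decide whether the epithelial class as a whole was above background. A part of the epithelium with higher levels of both genes is described below. Endothelial means of 4.21 and 3.49 CPM were below those of the mast cell cluster, and that of *Hoxd13* was also below the macrophage mean.

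*Hoxd12*, the neighbour of *Hoxd13* in the cluster, had its highest level in the same class. Its mesenchymal levels were 21.9, 18.0, 16.8 and 21.5 CPM, and no epithelial, endothelial, pericyte, glial or macrophage library exceeded 7.36 CPM. This was so for whole classes: a urethral-marker part of the epithelium described below had 9.13 to 32.3 CPM, from 9 UMIs. *Hoxa11*, which acts in the limb and the genital tract, was at 28.0, 27.3, 25.1 and 27.2 CPM in mesenchyme. The next highest value in these classes was 15.2 CPM, in the epithelium of DTA+ library 2, and all other values were at 7.29 CPM or less. Every mesenchymal library of both genes lay above every library of these classes, at mesenchymal-to-epithelial ratios of 6.24 and 4.97.

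*Hoxa10*, a regulator of the genital tract and of testis descent, was highest in mesenchyme, followed by pericytes. It was at 149.1, 109.2, 112.3 and 135.5 CPM in mesenchyme and at 80.1, 34.9, 43.6 and 74.4 CPM in pericytes, the mural cells of small vessels. Epithelial libraries had 30.5, 25.1, 19.2 and 36.5 CPM and endothelial libraries 31.8, 17.2, 13.4 and 33.0 CPM. Mesenchyme stood above pericytes in every library, whereas pericytes and epithelium, and epithelium and endothelium, overlapped. Across all genes, mesenchyme was above pericytes in every library for 8 of 9 members (background 25.4%), with *Hoxa9* overlapping and none lower (7.88%). In the smallest pericyte library (22 cells) 1 UMI is worth 8.90 CPM. *Hoxd9*, *Hoxd10*, *Hoxd12* and *Hoxa11* had 1, 2, 2 and 3 pericyte UMIs in all, so their order rests on very few counts.

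*Hoxd11*, a partner of *Hoxa11* in limb and kidney development, was, among whole classes, the gene that mesenchyme shared with glia. Mesenchymal libraries had 100.7, 81.9, 101.4 and 110.1 CPM, and glial libraries 77.1, 92.2, 83.4 and 50.5 CPM. These ranges overlapped, while pericytes (10.7 to 35.6 CPM), epithelium (0 to 30.5 CPM) and endothelium (2.45 to 8.48 CPM) were below both. The urethral-marker part of the epithelium described below had 45.4 to 161.5 CPM. Glia were below mesenchyme in every library for 7 of the 9 genes (background 20%). In the same glial cells *Hoxd13* was at 3.16 to 17.1 CPM and *Hoxa13* at 0 to 3.41 CPM. These cells also held 2312 to 5258 CPM of the summed mesenchymal markers. The part of that RNA in the glial *Hoxd11* count was not tested.

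*Hoxd10* had its highest mean in endothelium, but without separation from mesenchyme. It was at 23.3, 51.5, 31.4 and 27.9 CPM in endothelium and at 23.4, 16.99, 22.96 and 27.4 CPM in mesenchyme. Glia (4.06 to 15.8 CPM) were lower than both, and epithelium had 0 to 9.39 CPM. Endothelium was above epithelium in every library for *Hoxd9* and *Hoxd10*. Of these, *Hoxd9* was among the 3 members that passed the filter on low counts (background 25.6% of genes that passed), and *Hoxd10* did not pass it.

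*Hoxd9*, the HoxD paralog of *Hoxa9*, was highest in endothelium. Endothelial libraries had 93.3, 130.0, 147.9 and 104.1 CPM, and mesenchymal libraries 3.83, 3.78, 5.33 and 3.88 CPM. Endothelium exceeded mesenchyme in every library, and the mesenchymal mean was 0.0354 of the endothelial mean. Glia had 77.1, 20.5, 36.5 and 59.98 CPM, above mesenchyme in every library (1 of 9 genes, background 11.8%), and epithelium 37.5, 30.7, 20.9 and 39.6 CPM. Glia and epithelium overlapped, both stood below endothelium, and pericytes, the other vascular class, had 1 UMI in 209 cells. Macrophages had 0 UMIs of *Hoxd9* in 223 cells, which allows a level of up to 2.58 CPM.

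*Hoxa9*, which also acts in blood cell precursors, was the member highest in epithelium. Epithelial libraries had 75.1, 122.7, 115.0 and 103.6 CPM, and mesenchymal libraries 35.1, 27.5, 38.2 and 38.7 CPM. The epithelial mean was the higher in every library, and the mesenchymal mean was 0.335 of it. Pericytes (20.7 to 35.6 CPM) and endothelium (4.91 to 38.1 CPM) overlapped with mesenchyme and with each other. *Hoxa9* was the gene of the 9 that was lower in every endothelial than in every epithelial library (background 12.5%). It did not pass the filter on low counts in endothelium alone, so this share is no fair comparison. The plot of levels by class shows these orders gene by gene.

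**Figure D1:**
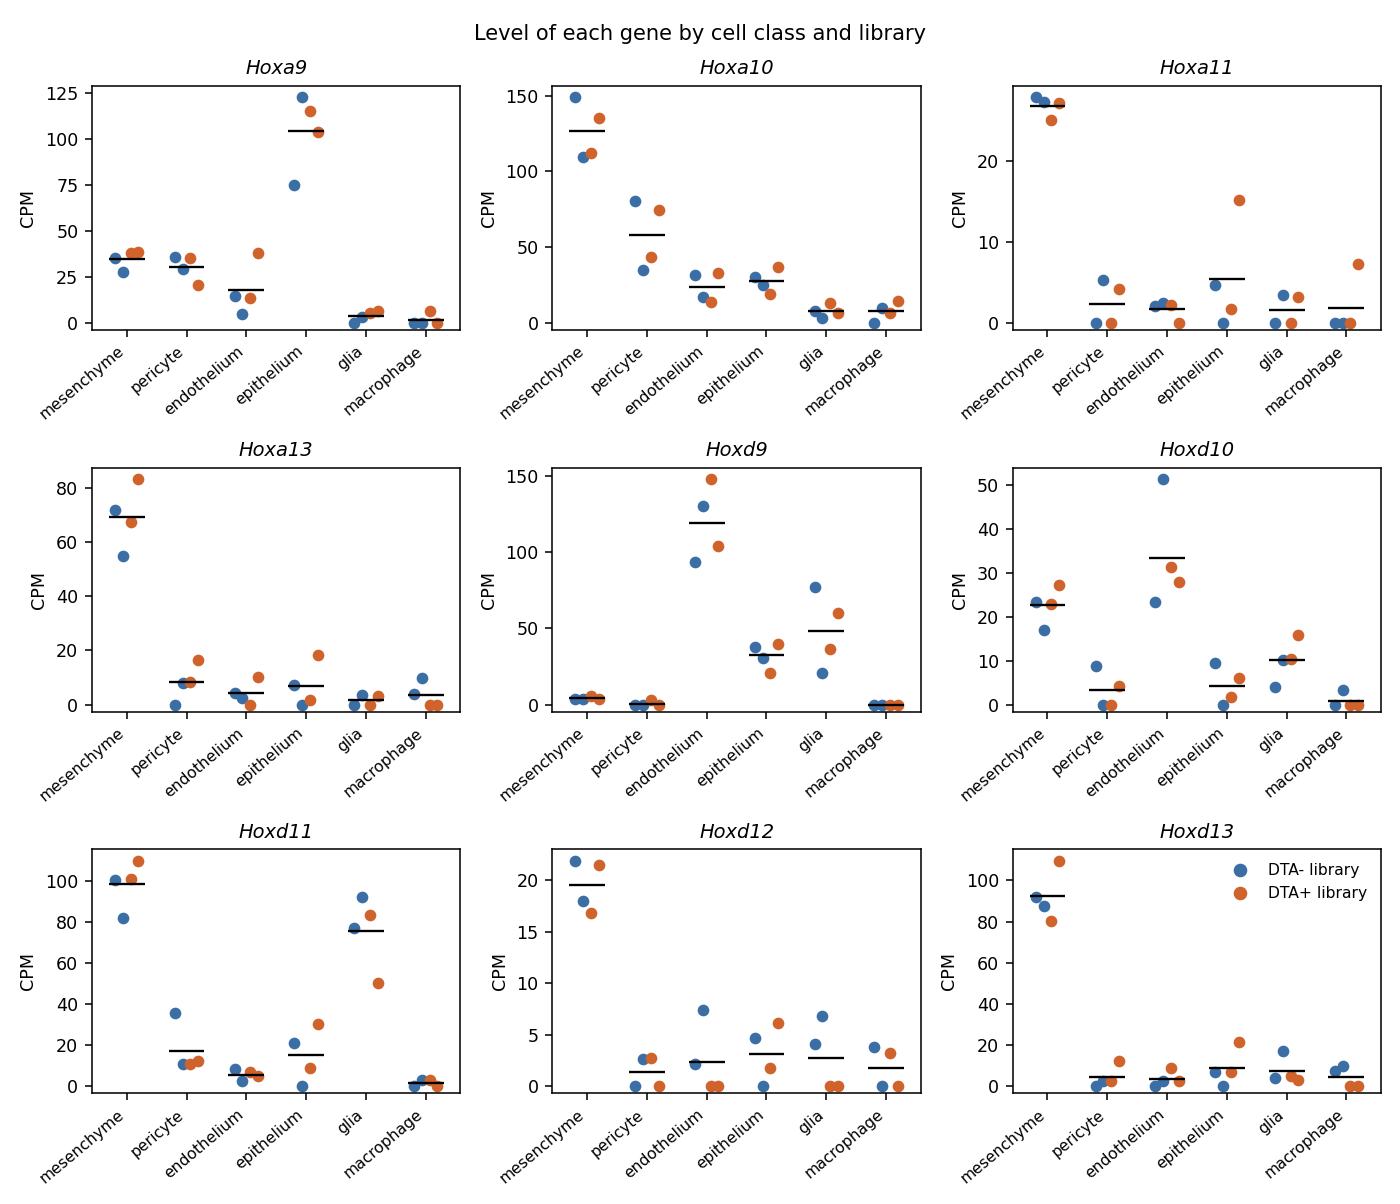
Level of each gene in CPM (vertical axis, linear, a separate scale for each gene) in 6 cell classes, with 1 point per library (blue DTA-, orange DTA+) and a bar at the mean of the 4 libraries. *Hoxa13*, *Hoxd12* and *Hoxd13* stand out in mesenchyme, *Hoxd9* in endothelium (93.3 to 147.9 CPM) and *Hoxa9* in epithelium (75.1 to 122.7 CPM).

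The share of cells with at least 1 UMI is the companion measure to CPM. In mesenchyme 35.9% of cells had a UMI of *Hoxa10*, 29.8% of *Hoxd11*, 28.1% of *Hoxd13* and 22.2% of *Hoxa13* (means of the 4 libraries). With every cell thinned to 1000 UMIs, these shares were 11.98%, 9.38%, 8.84% and 6.90%. *Hoxd9* was found in 29.6% of endothelial and 1.68% of mesenchymal cells (10.7% and 0.390% after thinning). *Hoxa9* was found in 26.0% of epithelial and 12.2% of mesenchymal cells (8.49% and 3.61%). Its share in pericytes was 14.0% (6.06% after thinning), above that of mesenchyme, whereas by CPM the mean of mesenchyme was the higher. After thinning the libraries overlapped, at 2.74% to 9.09% in pericytes and 2.66% to 4.39% in mesenchyme. In macrophages, whose libraries had median depths of 5152 to 5760 UMIs against 3503 to 4708 UMIs in mesenchyme, the share was 0% to 3.97% for the 9 genes. Cells set aside for their hemoglobin content had at most 3.71 CPM of any of the 9 genes.

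The other genes of the clusters extend the same arrangement. *Hoxd8* and *Hoxd4*, which follow *Hoxd9* in the cluster, were also highest in endothelium, at means of 106.4 and 49.6 CPM against 3.97 and 0.915 CPM in mesenchyme. *Hoxa7*, the next gene after *Hoxa9* in its cluster, was at 42.7 CPM in endothelium and 34.2 CPM in epithelium against 6.73 CPM in mesenchyme. Mesenchyme was the highest class from *Hoxa10* and from *Hoxd11* to the posterior end of each cluster, and for no gene of lower number that reached 10 CPM in some class. The plot of the clusters in gene order shows these means.

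**Figure D2:**
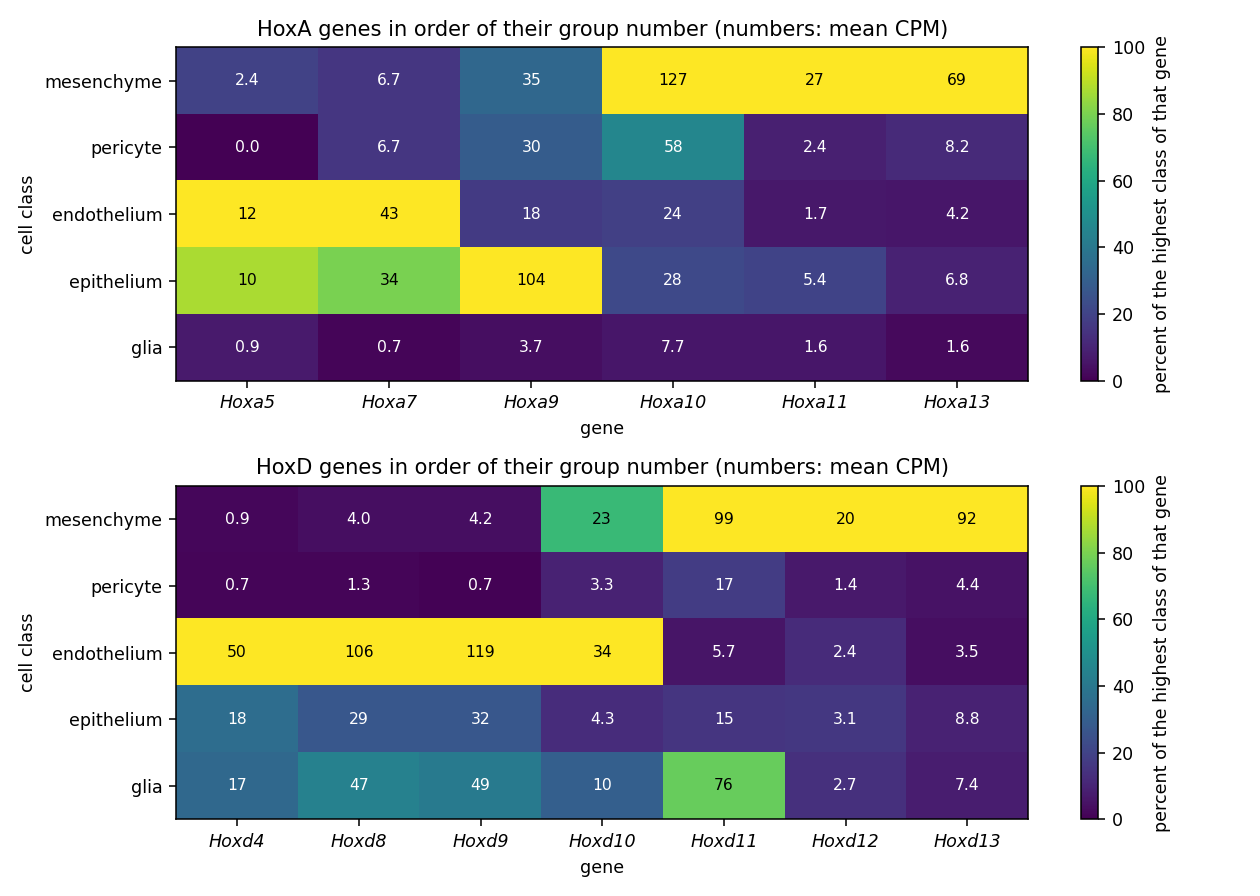
HoxA genes (top) and HoxD genes (bottom) that averaged 10 CPM or more in some class, in the order of their group number (horizontal axis), by cell class (vertical axis). Numbers are mean CPM over 4 libraries and the colour is the percent of the highest class of that gene. Mesenchyme is the highest class from *Hoxa10* to *Hoxa13* and from *Hoxd11* to *Hoxd13*, and endothelium from *Hoxd4* to *Hoxd10*.

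Within mesenchyme the genes were strongly graded. In the 16 mesenchymal clusters with at least 20 cells in every library, the cluster led by *Irx1* and *Col7a1* (2147 cells) had the lowest mean of 8 genes, all except *Hoxd9*. The cluster led by *Hand2os1* (851 cells), an RNA beside the genital tubercle and limb gene *Hand2*, had the highest mean of *Hoxa13*, *Hoxd10*, *Hoxd11* and *Hoxd13*. *Hoxa13* was at 149.4, 149.5, 169.9 and 164.8 CPM in the *Hand2os1* cluster and at 2.78, 4.99, 5.83 and 2.73 CPM in the *Irx1* cluster, means 38.8-fold apart. *Hoxd13* was at 190.1, 228.8, 235.1 and 208.5 CPM in the former and at 8.91, 17.3, 10.7 and 11.6 CPM in the latter. *Hoxd11* was at 201.8, 198.9, 232.4 and 191.7 CPM in the *Hand2os1* cluster and at 31.6 CPM or less in the *Irx1* cluster. For 8 of the 9 genes every *Hand2os1* library lay above every *Irx1* library, with *Hoxd9* overlapping; across all genes compared 19.1% did, and 8 members passed the filter there. This pair of clusters was picked by the levels of these same genes, so the separation was largely fixed by that choice. The share over all genes, which were not picked in this way, is no fair comparison for it. The clusters were also made from the same cells, so these levels are a description.

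The genes did not share a single order of clusters. *Hoxa10* was highest in the cluster led by *Msx2* and *Inhba* (242 CPM), *Hoxa11* in the one led by *Thbd* and *Ptgis* (45.5 CPM), and *Hoxa9* in the one led by *Cpm* (73.9 CPM). *Hoxd9* ranged only from 2.30 to 7.94 CPM, with its highest mean in the cluster led by *Top2a*, a gene of dividing cells. The largest mesenchymal cluster (3080 cells), led by *Sostdc1* and *Wnt16*, had *Hoxa10* (134 CPM, libraries from 97.1 to 166 CPM) and *Hoxa11* (37.6 CPM, 24.9 to 47.6 CPM) near or above their medians over the 16 clusters (130.4 and 30.6 CPM). In the same cells *Hoxa13* (17.1 CPM), *Hoxd13* (41.7 CPM) and *Hoxd11* (46.3 CPM) were below their medians of 97.2, 128 and 120.4 CPM. So were *Hoxa9* (24.9 against 40.1 CPM), *Hoxd9* (2.30 against 4.56 CPM), *Hoxd10* (10.3 against 28.9 CPM) and *Hoxd12* (11.1 against 21.1 CPM). The ratio of *Hoxa10* to *Hoxa13* CPM was 12.4, 6.31, 6.02 and 9.05 in the *Sostdc1* cluster and 2.07, 1.99, 1.67 and 1.63 in all mesenchyme of the same libraries. The 3 clusters with *Akap12* among their leading genes, a marker of the prepuce on the list used here, are left out of these ranges because their cells were split by genotype. The cluster led by *Ly6a* held 266 and 843 DTA- but 41 and 18 DTA+ cells, the one led by *Ccn3* 93 and 13 against 285 and 650, and the one led by *Iyd* 1 and 5 against 515 and 272. In them the *Hoxa13* values were 15.5 CPM or less in every library, but the smallest libraries cannot show a level this low. In DTA- library 1 of the *Iyd* cluster (1 cell) 1 UMI is worth 406.8 CPM. In DTA- library 2 of the *Ccn3* cluster (13 cells) 1 UMI is worth 21.0 CPM. No *Hoxa13* UMI was counted in these libraries or in DTA- library 2 of the *Iyd* cluster (5 cells). The heat map gives the means of 18 of the 19 clusters.

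**Figure D3:**
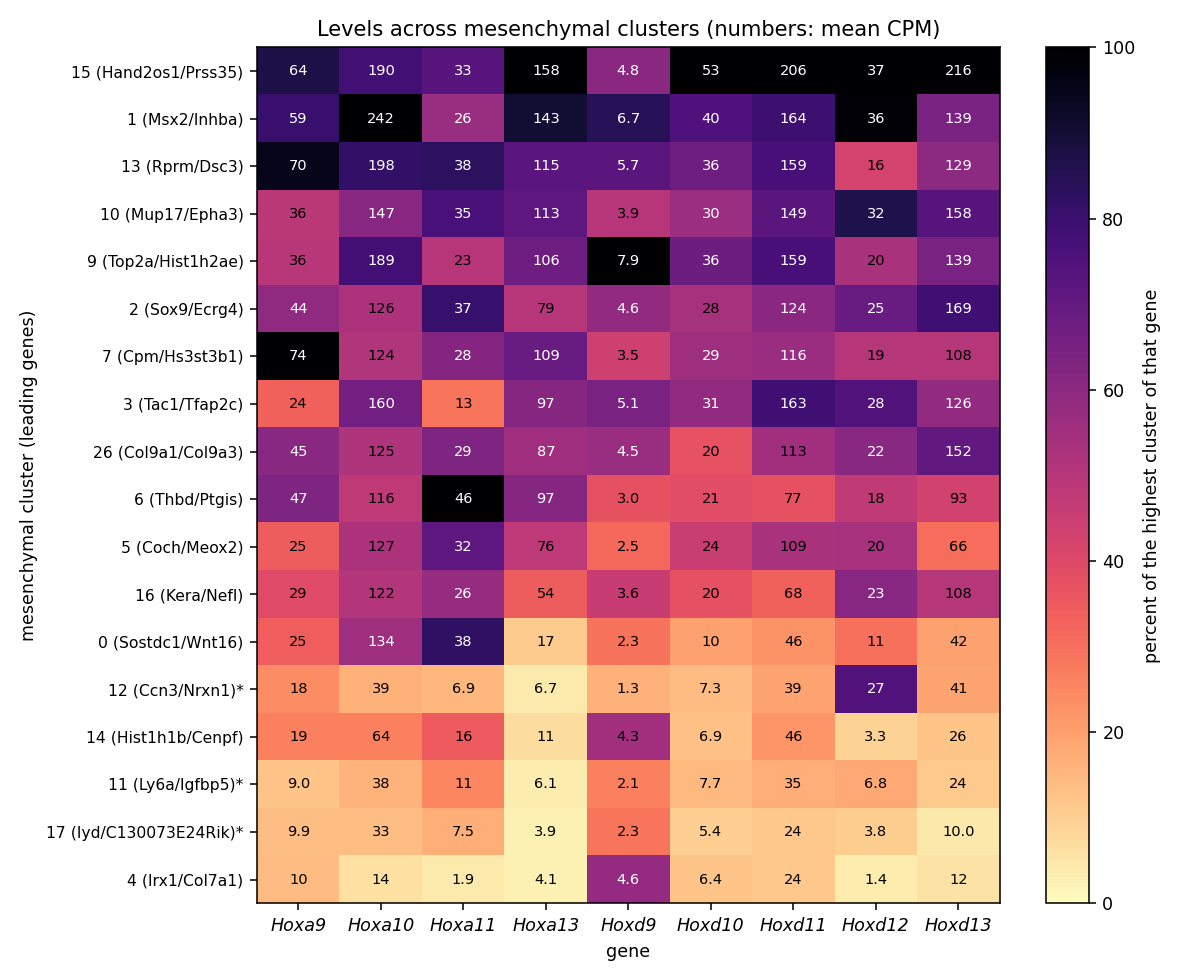
Mean CPM of the 9 genes (columns, numbers in the cells) in 18 mesenchymal clusters (rows, named by number and leading genes), with the colour giving the percent of the highest cluster of that gene among those shown. Rows are ordered by the mean percent of the 8 genes other than *Hoxd9*, and an asterisk marks clusters with fewer than 20 cells in a library. *Hoxa13* goes from 4.08 CPM in the *Irx1* cluster to 158.4 CPM in the *Hand2os1* cluster.

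Over the 16 clusters, the most similar profiles were those of *Hoxd10* and *Hoxd11* (Pearson r = 0.961), *Hoxa13* and *Hoxd10* (0.950) and *Hoxa13* and *Hoxd13* (0.949). *Hoxd9* had r of -0.183 to 0.457 with the other members. These values describe 16 clusters that share the same 4 libraries and differ in depth. *Hoxd10* and *Hoxd11* also share exonic bases with the uncounted transcript *Gm28309*. Over all 23 classes and clusters, the nearest profiles on the log2(CPM + 1) scale, among the 6343 genes averaging 20 CPM or more, were often other Hox genes. The antisense RNA *Hoxa11os* was nearest to *Hoxa10* (0.968) and to *Hoxa13* (0.959), *Hoxa13* was nearest to *Hoxd13* (0.953), and *Hoxd13* was nearest to *Hoxd12* (0.958). *Hoxa10* was followed by *Hoxa13* and *Hoxa11* (0.909 each), *Hoxa13* by *Hoxd13* (0.953) and *Tbx3os1* (0.944), and *Hoxd12* by *Hoxa13* (0.948) and *Bdh2* (0.922). *Hoxd13* was followed by *6330403K07Rik* (0.932) and *Serinc2* (0.931). Genes outside the clusters were nearest to the rest: *Magi2* (0.954), *Fzd1* (0.933) and *Mir100hg* (0.926) to *Hoxd11*, and *Gm4258* (0.931), *Rai14* (0.918) and *Zfp422* (0.917) to *Hoxd10*. *Hoxa11* was nearest to *6330403K07Rik* (0.911), *Hoxa10* (0.909) and *D430042O09Rik* (0.903). *Hoxd9* was nearest to *Slc39a10* (0.910), *Ctnnbip1* (0.866) and *Map4k5* (0.857), and *Hoxa9* to *Lrrc42* (0.859), *Arfrp1* (0.851) and *Efna4* (0.851).

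The epithelium was not uniform. To have enough cells, epithelial cells were taken without the upper UMI limit (760 cells, chosen after the first values were seen) and split into 9 subclusters without Hox genes. The subcluster of 51 cells (10, 13, 12 and 16 per library) in which 6 urethral markers were enriched, among them *Foxa1*, *Shh* and *Upk1b*, was set beside 622 other epithelial cells. A subcluster of 87 cells led by collagen genes was left out. *Hoxd13* was at 32.3, 72.6, 73.1 and 79.5 CPM in the urethral-marker cells and at 1.45 to 3.88 CPM in the others. *Hoxa13* was at 32.3, 27.2, 27.4 and 48.9 CPM, against 0 to 3.88 CPM. *Hoxd11* was at 161.5, 45.4, 91.3 and 85.6 CPM, against 2.91 to 5.35 CPM. These genes were higher in every library of the urethral-marker cells. They were 3 of the 6 members that passed the filter on low counts, but they passed it through the urethral-marker cells, where they are high. The share of all genes that passed and were higher there, 6.26%, is therefore no fair comparison, and the order is a description. *Hoxd12* (means of 21.0 and 1.26 CPM) was also higher in every library but did not pass the filter. In mesenchyme of the same cell set, *Hoxd11* (87.2 to 112.1 CPM), *Hoxd12* (15.4 to 21.6 CPM) and *Hoxd13* (76.1 to 112.5 CPM) overlapped with the urethral-marker cells. *Hoxa13* (62.0 to 84.8 CPM) was higher in every mesenchymal library.

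The group 9 genes did not follow. *Hoxd9* was at 0, 0, 18.3 and 24.5 CPM in the urethral-marker cells and at 34.8 to 60.1 CPM in the others, lower in every library. The subclusters of the others differed: those led by *Dkk4* (128 cells) and *Lce1m* (70 cells) had 1.44 and 0 CPM over all libraries. The urethral-marker subcluster had 13.5 CPM by the same measure, so low *Hoxd9* was not particular to it. In these urethral-marker cells 1 UMI is worth 16.1 CPM in DTA- library 1 and 9.08 CPM in DTA- library 2, so the 0 values do not show absence. *Hoxd9* was 1 of the 6 members that passed the filter, through the other cells, where its pooled level is high. The share of all genes lower in this way, 13.4%, is therefore no fair comparison. *Hoxa9* had means of 70.1 and 110.3 CPM, and its libraries overlapped. *Hoxa10*, *Hoxa11* and *Hoxd10* had means of 57.1, 8.62 and 10.9 CPM against 20.5, 1.30 and 0.898 CPM, with overlap in each. The urethral-marker values rest on few molecules, 16 UMIs of *Hoxa13*, 31 of *Hoxd13*, 39 of *Hoxd11*, 9 of *Hoxd12* and 6 of *Hoxd9*. Their cells had a median of 1 detected mesenchymal marker, against 7 in the subcluster left out, and macrophages of the same cell set had 11.1 CPM of *Hoxa13* and 12.4 CPM of *Hoxd13*. The plot of the epithelial cells shows both sets by library.

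**Figure D4:**
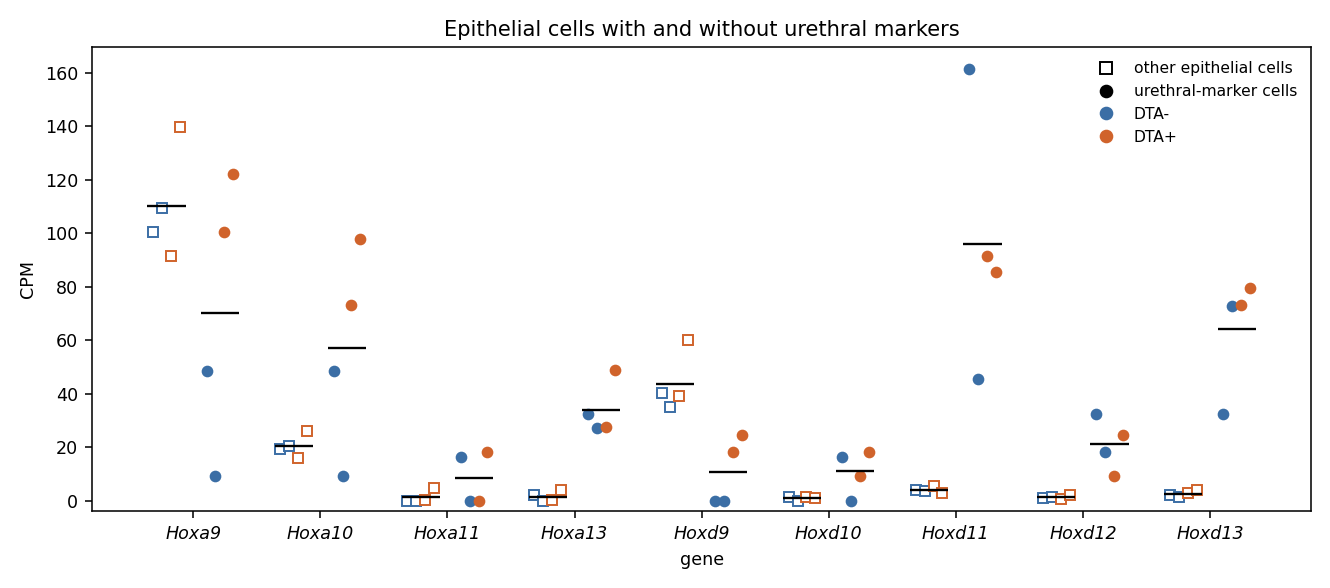
Level of each gene in CPM (vertical axis, linear) in 622 other epithelial cells (open squares) and 51 urethral-marker cells (filled circles), with 1 symbol per library (blue DTA-, orange DTA+) and a bar at the mean of 4 libraries. *Hoxa13*, *Hoxd11*, *Hoxd12* and *Hoxd13* do not overlap between the sets, and *Hoxd9* is the reverse, at 10.7 against 43.6 CPM. Subclusters of the other cells ranged from 0 to 102.9 CPM of *Hoxd9*.

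Between genotypes, no member passed the test when all mesenchymal cells were summed (0 of 9, where 1.21% of 15200 genes passed). The test was edgeR's quasi-likelihood F test on the summed counts, with p-values adjusted over all genes by the Benjamini-Hochberg method and a threshold of 0.05. None of the 9 had an unadjusted p under 0.05, and DESeq2 also called 0. In summed cells, fewer cells of a kind and less RNA per cell cannot be told apart. The log2 fold changes, DTA+ over DTA-, ran from -0.15 for *Hoxa11* (standard error 0.123) to 0.25 for *Hoxd10* (standard error 0.186), with a median of 0.14. The largest group 13 difference was that of *Hoxa13*, 0.18 (standard error 0.173). *Hoxd13* had the smallest, 0.01 (standard error 0.161), and the smallest adjusted p of the 9, that of *Hoxa9* (0.23, standard error 0.150), was 0.481. Both DTA+ libraries lay above both DTA- libraries for *Hoxa9*, *Hoxd9* and *Hoxd11* (33.3% of all genes tested did) and below for *Hoxa11* (18.2%), and the genotypes overlapped for the other 5 genes. Of the 5324 genes with a mean of 20 to 150 CPM in mesenchyme, 51 passed, and their smallest change was 0.705 on the log2 scale. This value is not a detection limit, because it depends on which genes changed and on their spread. *Hoxd9* (4.21 CPM) and *Hoxd12* (19.5 CPM) also averaged below that range. The lack of a call therefore does not show that the 9 genes were unchanged.

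In the other classes the test could be applied to few members. In epithelium, *Hoxa9* (log2 fold change 0.10, standard error 0.294), *Hoxa10* (-0.16, 0.493) and *Hoxd9* (-0.33, 0.465) passed the filter on low counts, and 0 of 3 passed the test (0% of 4883 genes did). In endothelium, *Hoxd9* (0.08, standard error 0.279), *Hoxd10* (-0.41, 0.434) and *Hoxa10* (-0.25, 0.542) were tested and 0 of 3 passed (0.0177%). In pericytes 0 of 2 passed (0.161%), in glia 0 of 2 (0.105%), and over all kept cells 0 of 9 (0.488%). No member had an unadjusted p under 0.05 in these fits, and DESeq2 called 0 in each. The difference between mesenchyme and epithelium in the effect of genotype, tested as a term of its own in edgeR, passed for 0 of 9 genes (0.223% of all genes), also with no unadjusted p under 0.05. The plot of fold changes shows the estimates with their standard errors.

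**Figure D5:**
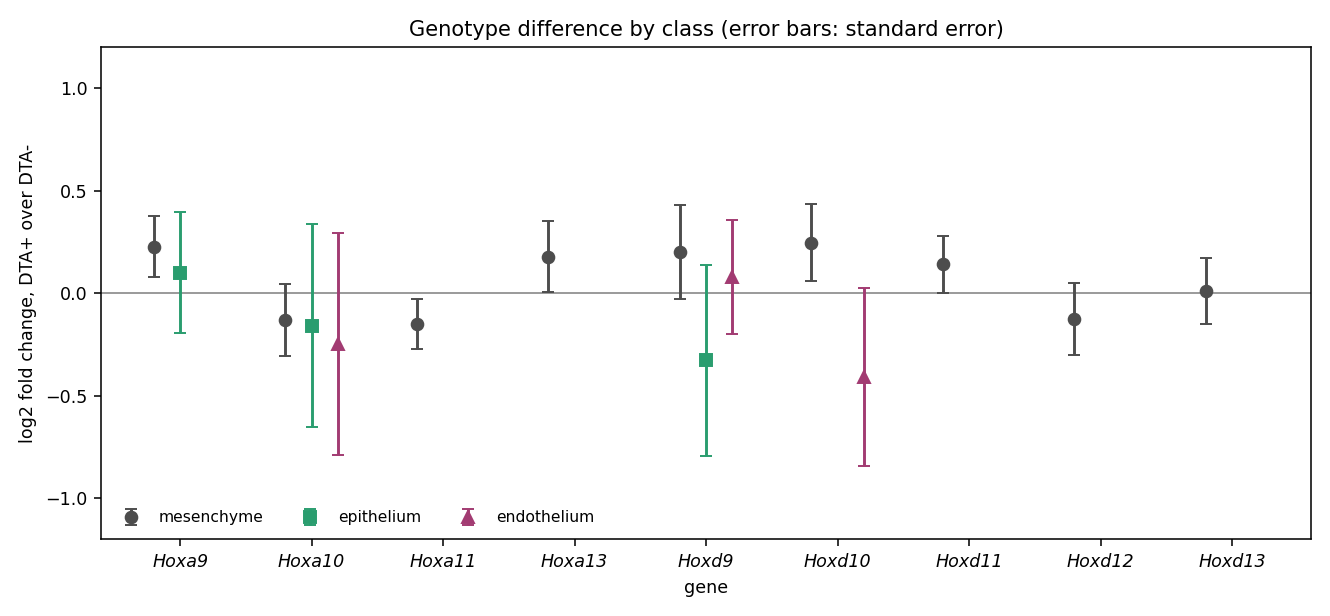
Log2 fold change of each gene, DTA+ over DTA- (vertical axis), in mesenchyme (9 genes), epithelium (3 genes) and endothelium (3 genes), with bars of 1 standard error from edgeR. All mesenchymal estimates lie between -0.15 and 0.25, and those of epithelium and endothelium have wider bars.

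Tested cluster by cluster, 1 of 125 gene and cluster pairs passed (3.88% of all pairs tested in these 16 clusters did), and 15 had an unadjusted p under 0.05 (15.2% of all pairs did). The pair that passed was *Hoxd10* in the cluster led by *Thbd* and *Ptgis*, at 17.8 and 8.78 CPM in the DTA- and 24.98 and 30.7 CPM in the DTA+ libraries. Both DTA+ libraries lay above both DTA- libraries. DTA+ over DTA-, this was a log2 difference of 0.99 with a standard error of 0.313 and an edgeR adjusted p = 0.0434, in a cluster where 12.3% of all genes passed. The call was lost without DTA- library 2 (0.60, adjusted p = 0.133 from edgeR) and without DTA+ library 2 (0.82, adjusted p = 0.230 from edgeR), and DESeq2 did not make it. Over the 125 pairs the median log2 fold change was 0.12, with 81 above 0 and a range of -0.68 to 1.12. In the 3 *Akap12* clusters joined, 0 of 9 members passed (3.63% of genes did), but different clusters supplied the cells of each genotype, so cluster and genotype cannot be told apart there.

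The cofactors, neighbours and linked genes of the Hox proteins were read from the same mesenchymal fit. None passed among the other HoxA genes (0 of 5 tested), the other HoxD genes (0 of 2), the posterior HoxB and HoxC genes (0 of 4), the noncoding RNAs and neighbours of the clusters (0 of 11), and the TALE cofactors *Meis*, *Pbx* and *Pknox* (0 of 9), which bind DNA together with Hox proteins. Of the 9 tested genes of a list linked to HOXA13 or HOXD13 in limb and genital tubercle, 2 passed (1.21% of all genes tested did). The list was drawn up with earlier results of these data known, so this count is a description. A link of these changes to the Hox genes was not tested. *Enpp2*, which encodes the lysophosphatidic acid-forming enzyme autotaxin, rose from 88.6 and 83.4 CPM to 163.8 and 166.1 CPM (log2 fold change 0.87, standard error 0.110, adjusted p = 0.0241 from edgeR). *Sostdc1*, which encodes a secreted BMP and WNT antagonist, fell from 478.7 and 460.0 CPM to 239.7 and 282.5 CPM (-0.92, standard error 0.116, adjusted p = 0.0241 from edgeR). The genotypes did not overlap for either gene. Both passed under all alternatives run, with adjusted p of 5.47e-08 to 0.0494 over edgeR and DESeq2 fits. The median log2 fold change of the list was -0.06, against -1.71e-06 for all genes tested. *Sostdc1* is also the leading gene of the largest mesenchymal cluster.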

How the data were processed

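Penises of E16.5 mouse embryos were profiled with the 10x 3′ single-cell kit, with 2 libraries per genotype, pooled and sequenced together. The authors deposited, for each cell, the UMI counts of every gene, made with Cell Ranger against mm10 with the reporter sequence added (version 4.0.0 per the labels and file headers; the methods name another version). No normalization had been applied. Cells above 1000 and under 7500 UMIs, entered the analysis unless mitochondrial counts exceeded 25%, Hba counts 25% or Hbb counts 50%. They were clustered with Seurat 5.3.0 (2000 variable genes, none of them Hox genes, 30 principal components, resolution 0.8). To carry the name of a class, a cluster needed 3 or more of its markers enriched, 50% or more of the list, and 1 or more of them among its 10 leading genes; the others were called mesenchymal where the median cell had at least 4 mesenchymal markers. Scrublet marked no cells automatically, so doublets were treated only as an alternative, by leaving out the highest scores.

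Counts were summed per library and class and tested with edgeR 4.0.16 (TMM scaling, filterByExpr, quasi-likelihood F test, genotype as the only term), with Benjamini-Hochberg adjustment over all genes tested and a threshold of 0.05. DESeq2 1.42.0 was an alternative. Mesenchymal clusters were tested with at least 20 cells in every library. The tests were tried on simulated counts first. The 9 genes are all named; further genes are the 3 nearest profiles of each and the listed genes that passed in mesenchyme. Members, lists and markers were chosen with earlier results of these data known. The split of the epithelium and the joined *Akap12* clusters were added after values were seen. Limits that a count of 0 allows use 3 UMIs and cover counting error only. Some sequences and 1 mesenchymal cluster are not reported here.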

Additional observations from a re-analysis of the deposited data

Results flagged for a closer look

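*Hoxd9* had a signal in cells that the comparisons leave out, those with 7500 UMIs or more that met the other limits (1117 to 2513 cells per library). Its level there was 18.5 CPM in the lowest library and 33.6 CPM in the highest, against 5.57 to 7.97 CPM in the kept cells, so every library of the former lay above every library of the latter. Separation in the other direction was seen for *Hoxa10*, with 49.1 to 98.9 CPM in the cells left out and 101.4 to 138.4 CPM in the kept cells. The same held for *Hoxa11* (11.8 to 18.9 against 22.8 to 26.0 CPM) and *Hoxd12* (5.49 to 14.7 against 15.3 to 20.5 CPM). *Hoxa13* also went that way in range but overlapped, with 22.9 to 61.5 CPM in the cells left out and 49.9 to 79.2 CPM in the kept cells. So did *Hoxd11* (46.0 to 83.5 against 75.7 to 105.1 CPM) and *Hoxd13* (31.5 to 84.5 against 73.0 to 103.5 CPM). Nearly equal ranges were seen for *Hoxd10* (16.0 to 24.7 against 16.4 to 26.3 CPM) and *Hoxa9* (29.3 to 39.3 against 26.9 to 38.3 CPM). The share of all genes that separate was not computed. When the cells were clustered with these cells included, endothelium held 924 cells in place of 497 and its mean *Hoxd9* level was 117 CPM, against 118.8 CPM without them. The part of the cell classes in this difference was not tested.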

How the results depend on the processing

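No member passed in all cells, mesenchyme, epithelium, endothelium or pericytes, or for the difference between mesenchyme and epithelium, under any alternative run, and 7 genes stayed above epithelium in every mesenchymal library throughout. The count of cluster pairs, 1 of 125, depended on the setting. It was 0 with DESeq2, with cells of 7500 UMIs and above kept (14 clusters), with cells thinned to 1000 UMIs and at resolution 0.4 (8 clusters), and 4 at resolution 1.2 (19 clusters). Leaving out a library gave 0 to 4, with 4 without DTA- library 1, 3 without DTA- library 2, 1 without DTA+ library 1 and 0 without DTA+ library 2. The log2 fold change of *Hoxd10* in the *Thbd* cluster was 1.00 with DESeq2, 0.66 with the larger cells kept, 1.13 after thinning and 0.76 at resolution 0.4, past the threshold in none, and 0.60 to 1.63 with a library left out. The cause was not tested.

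Among estimates that passed no test, the sign turned in mesenchyme for *Hoxd13* with the larger cells kept (-0.10), for *Hoxd12* after thinning (0.057) and for *Hoxa11* with clusters weighted equally (0.0014), and in epithelium with the larger cells kept for *Hoxd9* (0.26) and *Hoxa10* (0.21). With a library left out, mesenchymal values ran from -0.23 to 0.21 for *Hoxd13*, -0.31 to 0.031 for *Hoxd12*, -0.013 to 0.30 for *Hoxd11*, -0.051 to 0.42 for *Hoxd9*, -0.35 to 0.12 for *Hoxa10* and -0.015 to 0.39 for *Hoxa13*. In epithelium they ran from -0.75 to 0.11 for *Hoxd9*, -0.16 to 0.43 for *Hoxa9* and -0.58 to 0.29 for *Hoxa10*, and in endothelium from -0.87 to 0.20 for *Hoxd10*, -0.24 to 0.32 for *Hoxd9* and -0.96 to 0.32 for *Hoxa10*.

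Libraries with the same number deviated from their genotype means with r = -0.264 in mesenchyme and 0.0757 in epithelium, so the numbers were not taken as pairs. With a replicate block the count of cluster pairs was 1 and the other counts were 0, and *Hoxd13* in mesenchyme was at -0.0054; a crossed replicate block, added after the data were seen, gave the same counts. In classes with few cells, 1 UMI is worth several CPM, so differences of low genes in epithelium, endothelium and pericytes were not detectable at this depth.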

Other observations

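Genes of the other Hox clusters were also spread unevenly over the cell classes. *Hoxc11* and *Hoxc10* had means of 55.4 and 39.8 CPM in mesenchyme, and 105.6 and 65.3 CPM in the cluster led by smooth muscle genes, in which *Hoxd11* (30.9 CPM) and *Hoxd13* (25.9 CPM) were below their mesenchymal means. That cluster held 140 and 196 cells in the DTA- and 33 and 13 cells in the DTA+ libraries. *Hoxb9* was at 118.5 CPM in glia and 44.5 CPM in endothelium, and *Hoxb7* at 23.9 and 44.3 CPM in the same classes. *Hoxa11os*, the antisense RNA beside *Hoxa11*, was at 78.6 CPM in mesenchyme, and *Hotair*, a noncoding RNA of the HoxC cluster, at 10.6 CPM. *Hottip*, which lies beside *Hoxa13*, was at 3.85 CPM there, and *Evx2*, the gene next to *Hoxd13*, at 7.23 CPM.

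Averaging the 16 mesenchymal clusters with equal weight in every library, which removes differences in how many cells each cluster held, gave 38.7 and 34.6 CPM of *Hoxa9* in the DTA- and 48.7 and 43.0 CPM in the DTA+ libraries. *Hoxa13* was at 80.3 and 79.0 against 94.1 and 94.9 CPM, *Hoxd10* at 25.7 and 22.0 against 28.8 and 30.9 CPM, and *Hoxd11* at 114.3 and 106.6 against 133.0 and 117.6 CPM. The genotypes overlapped for the other 5 genes, with log2 ratios of -0.0071 for *Hoxa10*, 0.0014 for *Hoxa11*, 0.15 for *Hoxd9*, -0.07 for *Hoxd12* and 0.04 for *Hoxd13*. These are values with no test. The share of all genes without overlap was not computed for this measure, so the genes without overlap are not read as a result. In the summed mesenchyme, 33.3% of all genes tested were higher in both DTA+ libraries.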
